A study of Mus musculus with 12 samples.

Results

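Small nucleolar RNAs (snoRNAs) and small Cajal body RNAs (scaRNAs) were measured in 12 rhabdoid tumors of mice. The rows were chosen by name: every symbol that begins with Snora, Snord or Scarna followed by a digit. This gave 119 rows of 24060 (0.495%), of which 74 were C/D box snoRNAs (Snord), 36 were H/ACA box snoRNAs (Snora) and 9 were scaRNAs (Scarna). All animals were P0-CreC;Smarcb1flox/flox on the FVB/N background, so that Cre recombinase under the P0 promoter removed Smarcb1 from neural crest cells early in the embryo. The tumors were labelled retro-orbital (4), cheek (3), meninges (3), vestibular nerve (1) and trigeminal nerve (1), numbered here in the order of the sample list. No normal tissue and no tumor with intact Smarcb1 was among the samples, and the ages of the animals are not given in the sources used here. The libraries were made from total RNA after removal of ribosomal RNA, and 1 value per gene and tumor was used, in RPKM, the number of reads of a gene scaled to its length and to the mapped reads of the library.

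Most snoRNAs of mammals are cut out of the introns of host genes. C/D snoRNAs, named after 2 short sequence boxes near their ends, carry fibrillarin to ribosomal RNA and guide the methylation of riboses. H/ACA snoRNAs end in the letters ACA and carry dyskerin, which turns uridine into pseudouridine. ScaRNAs have the same boxes, stay in Cajal bodies and act on the RNAs of the spliceosome. A few snoRNAs are needed for the cutting of the ribosomal precursor. Genes for ribosome production are active in many growing tumors, and rhabdoid tumor cells have prominent nucleoli.

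The sequences of the members carried the boxes by which the classes are named. Of 73 C/D RNAs found in GENCODE M21, 62 held TGATG (box C) in the first 20 bases and 71 held CTGA (box D) in the last 20 bases. Of 36 H/ACA RNAs, 34 held ACA in the last 7 bases, and the exceptions were Snora44 and Snora81. Among 21224 other transcripts of 60 to 420 bases, TGATG stood in the first 20 bases of 3.59%, CTGA in the last 20 bases of 11.7% and ACA in the last 7 bases of 11.0%, each read on the transcribed strand. The scaRNAs were of both kinds: Scarna6, Scarna9, Scarna10 and Scarna17 held both C and D letters, Scarna3a, Scarna3b, Scarna8 and Scarna13 held ACA at the end, and Scarna2 held CTGA alone.

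A highly expressed RNA of each class, covered over most or all of its length, is shown first, with boxes C and D or the final ACA in capitals. Snord17 lay at chr2:144265979-144266216 (GRCm38, minus strand) in Snx5, a sorting nexin gene. Snora23 lay at chr7:110046364-110046547 (plus strand) in Ipo7, a nuclear import receptor gene. Scarna13 lay at chr12:105031075-105031349 (minus strand) in the noncoding gene Snhg10.
Snord17: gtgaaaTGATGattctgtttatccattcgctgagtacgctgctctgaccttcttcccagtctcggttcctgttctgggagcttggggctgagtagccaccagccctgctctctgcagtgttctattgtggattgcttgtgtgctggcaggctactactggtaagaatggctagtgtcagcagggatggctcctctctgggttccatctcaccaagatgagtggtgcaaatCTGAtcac
Snora23: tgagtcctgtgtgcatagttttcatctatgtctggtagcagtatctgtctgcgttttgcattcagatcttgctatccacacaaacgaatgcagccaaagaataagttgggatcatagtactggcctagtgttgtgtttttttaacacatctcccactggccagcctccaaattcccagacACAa
Scarna13: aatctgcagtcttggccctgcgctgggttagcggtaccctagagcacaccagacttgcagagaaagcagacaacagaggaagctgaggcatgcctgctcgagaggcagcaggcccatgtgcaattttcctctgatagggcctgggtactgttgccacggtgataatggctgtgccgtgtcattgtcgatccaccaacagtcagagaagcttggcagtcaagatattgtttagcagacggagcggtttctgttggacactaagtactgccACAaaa

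A level per kilobase depends on the length behind it, and for several members that length was a small piece of the gene. For 101 of the 107 rows whose length could be recovered, the values were whole numbers of fragments at the length of the RefSeq gene. The median row covered 88.3% of the GENCODE gene, and 30 rows covered less than 80%. The rows of Scarna2 and Scarna10 covered the smallest parts. Scarna2 is a scaRNA gene of 414 bases (chr3:108554338-108554751, minus strand), and its row covered 61 bases, bases 350 to 410 of the RNA. Scarna10 has 325 bases (chr6:125186359-125186683, minus strand, in the condensin gene Ncapd2), and its row covered the 71 bases from 253 to 323. Snord98 has 65 bases (chr10:62765576-62765640, minus strand, in Ccar1), of which 28 were covered. The covered bases are in capitals in the stretches shown, which run from base 310 to the end for Scarna2, from base 213 to the end for Scarna10 and over the whole RNA for Snord98.
Scarna2: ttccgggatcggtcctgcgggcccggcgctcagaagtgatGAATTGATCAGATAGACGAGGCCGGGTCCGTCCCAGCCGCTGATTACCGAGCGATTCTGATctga
Scarna10: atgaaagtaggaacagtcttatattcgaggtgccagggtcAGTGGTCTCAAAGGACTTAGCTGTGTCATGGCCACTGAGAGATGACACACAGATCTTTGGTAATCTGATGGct
Snord98: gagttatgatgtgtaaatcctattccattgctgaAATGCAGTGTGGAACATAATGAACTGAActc

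**Figure D1:**
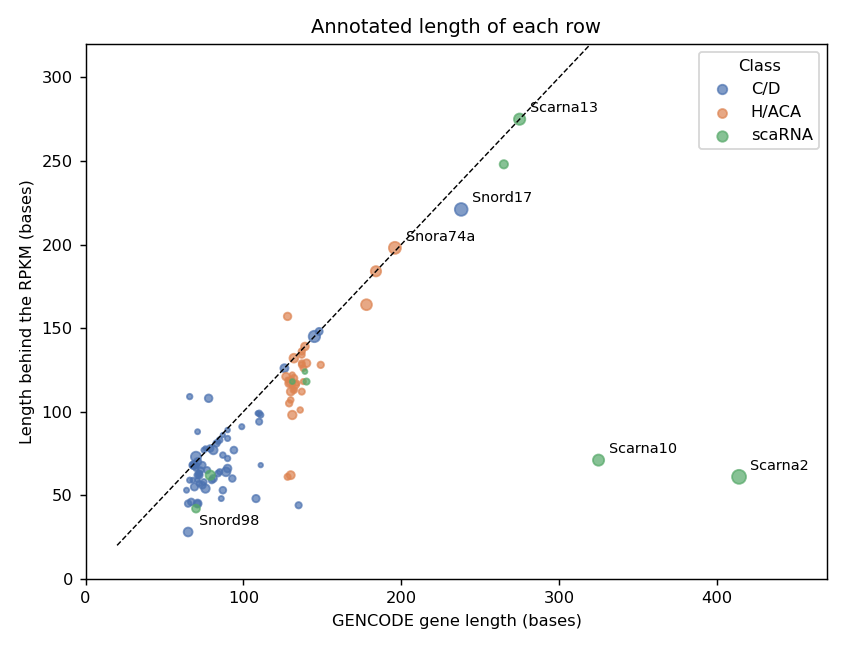
Length behind each RPKM value (bases, vertical axis) against the length of the GENCODE gene (bases, horizontal axis) for the 107 rows with a recovered length; colors are classes, point areas grow with the mean RPKM, and the dashed line marks equal lengths. Scarna2 (61 of 414 bases), Scarna10 (71 of 325 bases) and Snord118 (44 of 135 bases) lie far below the line, whereas Scarna13 lies on it.

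The fragment totals recovered from the steps between RPKM values ran from 13206181 (cheek 3) to 57128364 (retro-orbital 3). The paper gives the reads per sample only as a range over all samples, and that range is narrower in proportion. The recovered totals could not be checked against it tumor by tumor. The Smarcb1 row was at 1.70 to 6.31 RPKM in the 12 tumors, with the lowest value in the vestibular nerve tumor. These reads cannot be split between tumor cells and other cells of the tissue, and with no intact control the row does not check the deletion. Summed levels of 6 muscle genes ranged from 13.5 to 456 RPKM in cheek, 4.81 to 178 RPKM in retro-orbital and 5.39 to 172 RPKM in meninges tumors. The highest sum in meninges, that of meninges 1, was nearly all Tnnt3 (165 RPKM). The other muscle genes were at 0.308 to 3.30 RPKM in that tumor. Those of 6 neuron and glia genes ranged from 31.7 to 35.9 RPKM in cheek and from 147 to 430 RPKM in meninges. In the retro-orbital tumors the neuron and glia sums ran from 20.97 to 277 RPKM and so reached into both ranges. Vim, a mesenchymal filament gene, was present in every tumor (lowest value 114 RPKM). The RNA of Fabp7, which the paper uses as an early marker of Schwann cell precursors, was uneven. It ranged from 0.0637 RPKM in retro-orbital tumor 4 to 44.8 RPKM in meninges 1, with a median of 2.15 RPKM. By staining, the paper found FABP7 protein in all rhabdoid tumors that it scored, mostly strong. RNA and protein of the same tumors were not compared. Summed levels of 5 leukocyte genes ranged from 574 to 5620 RPKM over the 12 tumors. Most of the highest sum, that of retro-orbital tumor 2, was Lyz2 (4444 RPKM). The hemoglobin genes Hba-a1, Hba-a2 and Hbb-bs were listed at 0 in all 12 tumors, and Hbb-b1 was above 0 in cheek 3 alone. Alas2, another gene of red blood cells, was at 2.34 to 11.5 RPKM. The authors kept uniquely mapped reads, and these values of 0 do not show that blood was absent. The part of other cells in the values was not tested, and in such bulk samples fewer cells of a type and less RNA per cell cannot be told apart.

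Retro-orbital tumor 3 stood apart from the rest in its rows of few fragments. It had the largest recovered total, yet 38 of the 119 rows were at 0, against 14 to 27 in the other 11 tumors. Among genes of a span under 1000 bases, 33 rows of this tumor held 1 to 8 fragments, which was 9.35% of its rows above 0. In the other tumors 181 to 888 such rows held 1 to 8 fragments, or 36.1% to 80.7% of the rows above 0. Retro-orbital tumor 4, with the second highest total, was next to it. What gave this shortage of low counts was not tested. MicroRNA rows at 0 were also most numerous in retro-orbital tumor 3 (921, against 651 to 821), although 14178 rows of all kinds reached 1 RPKM there, the second highest number.

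In retro-orbital tumor 3, 10 rows were at 0 that were above 0 in the other 11 tumors: Scarna8, Snora15, Snora5c, Snora64, Snord11, Snord42a, Snord66, Snord67, Snord99 and Snord118. Snord99, which lies in the noncoding host Snhg12, had a median of 16.1 RPKM in the other tumors and a lowest value of 5.20 RPKM. At the depth of retro-orbital tumor 3, that median corresponds to 51.3 fragments. Snord118 (U8), needed for processing of the large ribosomal subunit RNA, had a median of 5.78 RPKM in the others, or 14.5 fragments at this depth. The values of Snord118 fit whole fragments at 44 bases, where the gene has 135.

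**Figure D2:**
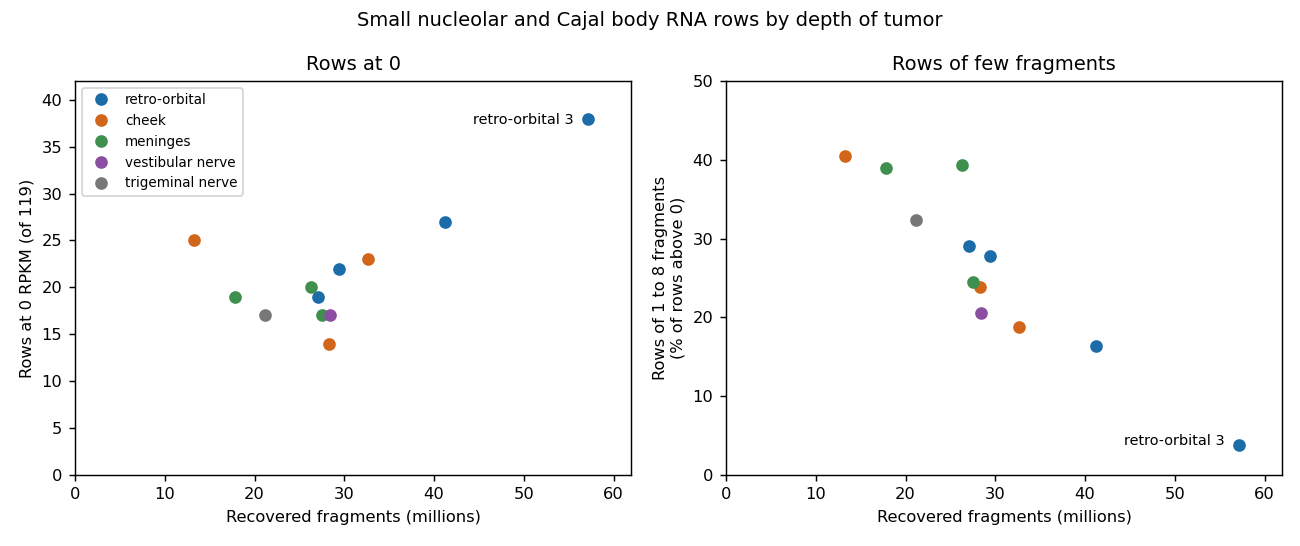
Left, number of the 119 rows at 0 RPKM; right, percent of the rows above 0 that held 1 to 8 fragments; both against the recovered fragments of each tumor, with points colored by location. Retro-orbital tumor 3 has the largest total, the most rows at 0 (38) and the smallest share of rows with few fragments (3.75%).

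The snoRNA and scaRNA rows together held between 0.549% (trigeminal nerve) and 0.888% (retro-orbital 1) of a tumor's summed RPKM, with a median of 0.621%. The share was 0.888%, 0.607%, 0.685% and 0.635% in retro-orbital tumors 1 to 4. It was 0.703%, 0.575% and 0.689% in the cheek tumors and 0.691%, 0.574% and 0.555% in the meninges tumors. The vestibular nerve tumor was at 0.589%. Retro-orbital tumor 1 lay above all others, and the ranges of the 3 locations overlapped. The location means were 0.704% ± 0.127 (SD, n = 4) in retro-orbital, 0.656% ± 0.0705 (SD, n = 3) in cheek and 0.607% ± 0.0737 (SD, n = 3) in meninges tumors, so that the means differed by less than the SD of the retro-orbital tumors. No test was run on this sum over the members. The sums rest on 4621 (meninges 3) to 20814 (retro-orbital 3) fragments per tumor.

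The denominator of the share was itself uneven. Rpph1 and Rmrp, the RNAs of RNase P and RNase MRP, alone made up 6.13% to 12.1% of the summed RPKM, many times more than all snoRNAs and scaRNAs. Rpph1 ranged from 13240 to 31237 RPKM and Rmrp from 9784 to 28531 RPKM. Without the 10 highest other rows in the denominator, retro-orbital tumor 1 was still the highest, at 1.07%, and the mean share was 0.768% in place of 0.645%. With member levels scaled to the GENCODE lengths, the mean share was 0.496%, and retro-orbital tumor 1 was again the highest, at 0.647%. This scaling divides the fragments counted on the covered bases by the length of the whole gene. Fragments from the other bases were not counted, so it can set rows that cover a small part of their gene too low.

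**Figure D3:**
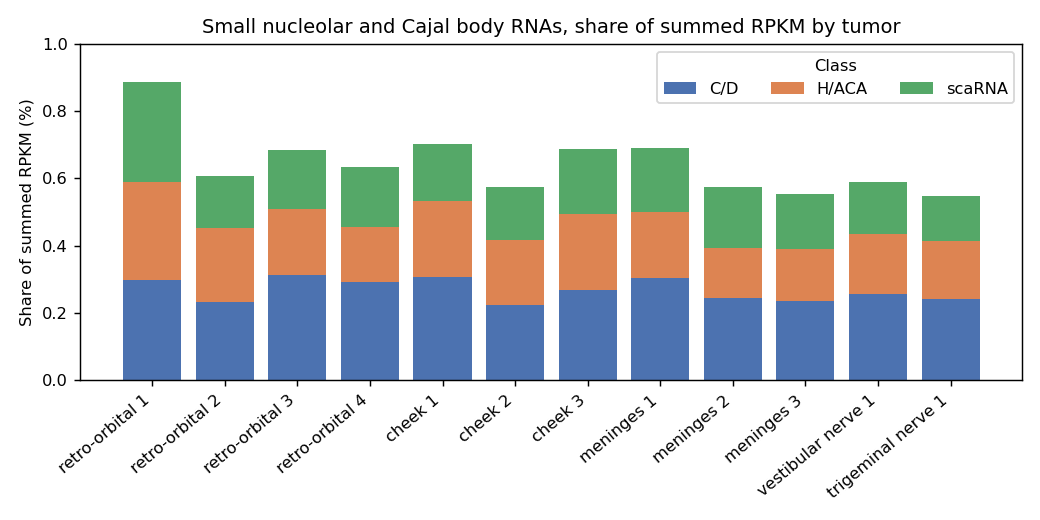
Share of summed RPKM (percent, bars from 0) held by C/D, H/ACA and scaRNA rows in each of the 12 tumors. Retro-orbital tumor 1 reaches 0.888%, with close to equal parts of the 3 classes, and the other tumors lie between 0.549% and 0.703%.

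Between the classes, C/D rows had the largest sum and scaRNA rows, with 9 members, nearly as much as H/ACA rows. C/D rows held 41.8% ± 3.61, H/ACA rows 30.5% ± 3.21 and scaRNA rows 27.7% ± 2.79 of the members' sum (SD, n = 12 for each). Scaled to GENCODE lengths, these parts were 47.6% ± 4.28, 36.7% ± 3.43 and 15.6% ± 1.69. The scaRNA sum was then well below the H/ACA sum, but this scaling lowers rows that cover a small part of their gene, such as Scarna2 and Scarna10. Which of these values is nearer to the levels of the whole RNAs was not tested. C/D sums ran from 928 to 1324 RPKM, H/ACA sums from 604 to 1299 RPKM and scaRNA sums from 560 to 1326 RPKM. Retro-orbital tumor 1 was the highest in each of the 3. The 3 members of highest mean, Scarna2, Snord17 and Snora74a, made up 20.4% to 38.3% of the members' sum.

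The ratio of H/ACA to C/D sums was 0.981, 0.945, 0.631 and 0.566 in the retro-orbital tumors. It was 0.737, 0.869 and 0.833 in the cheek tumors, and 0.651, 0.606 and 0.653 in the meninges tumors. The vestibular and trigeminal nerve tumors were at 0.702 and 0.710. The 3 meninges tumors lay below the 3 cheek tumors, and the retro-orbital tumors spanned both, with 2 above every other tumor. The first 2 digits of the tumor identifiers were uneven over the locations. Retro-orbital 1 and 2 shared them with cheek 1 and meninges 1. Retro-orbital 3 and 4 shared them with meninges 2, meninges 3 and the trigeminal nerve tumor, all at 0.566 to 0.710. Cheek 2 and 3 shared them with the vestibular nerve tumor. The part of these digits in the ratio was not tested. Row by row the order of the classes was the opposite: the median of the mean levels was 4.96 RPKM for C/D rows, 9.17 RPKM for H/ACA rows and 34.1 RPKM for scaRNA rows. The mean of log2(RPKM + 1) was higher in H/ACA than in C/D rows in 12 of 12 tumors, by 0.75 ± 0.15 (SD, n = 12).

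Length went with class. The rows had a median length of 68 bases for C/D and 119 bases for H/ACA RNAs. Of the 9 rows of at least 140 bases, the median of the mean levels was 117 RPKM, against 7.84 RPKM for the 98 shorter ones. Over all 107 rows the rank correlation of length and mean level was weak (Spearman's rho 0.11), and it was -0.12 within C/D and 0.29 within H/ACA rows, where the rows share the same libraries. Restricted to genes with a RefSeq length of 120 to 150 bases, the ratio of H/ACA to C/D sums was 0.984 ± 0.441 (SD, n = 12), but this left 14 H/ACA and 4 C/D rows (Snord118, Snord15a, Snord15b and Snord22). Without Snord118, whose values fit 44 bases, the ratio was 1.04 ± 0.515. The part of length in the class difference was not tested.

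Over the 12 tumors the class sums rose and fell together. On a log2 scale Pearson's r was 0.58 between C/D and H/ACA, 0.65 between C/D and scaRNA and 0.71 between H/ACA and scaRNA sums, among sums that share a library and a denominator. Without retro-orbital tumor 1 these values were 0.44, 0.64 and 0.33.

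Among the C/D RNAs, Snord17 was the highest, at 109 to 401 RPKM with a median of 227 RPKM. Its values were 294, 220, 401 and 348 RPKM in the retro-orbital tumors, 229, 121 and 225 RPKM in cheek, 264, 273 and 176 RPKM in meninges, 109 RPKM in the vestibular nerve and 160 RPKM in the trigeminal nerve tumor. The highest values were in retro-orbital tumors 3 and 4, and both nerve tumors lay below the retro-orbital ones. It was backed by 657 to 5065 fragments per tumor, and its variance over tumors was 196 times the counting variance. Snord17 was the member of highest mean when levels were scaled to GENCODE lengths. Scarna2 then fell from first to the eighth place and Scarna10 from the sixth to the 17th, by a scaling that counts no fragments outside their covered bases.

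Snord15b and Snord15a are 2 members of the U15 family, which guides methylation of the large ribosomal subunit RNA, and both lie within Rps3, a ribosomal protein gene. Both are shown with boxes C and D in capitals, since they share a host and differ in level. Snord15b lies at chr7:99479563-99479707 and Snord15a at chr7:99482785-99482932, both on the minus strand.
Snord15b: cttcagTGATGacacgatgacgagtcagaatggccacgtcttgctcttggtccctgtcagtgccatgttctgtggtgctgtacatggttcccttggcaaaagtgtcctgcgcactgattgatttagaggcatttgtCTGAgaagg
Snord15a: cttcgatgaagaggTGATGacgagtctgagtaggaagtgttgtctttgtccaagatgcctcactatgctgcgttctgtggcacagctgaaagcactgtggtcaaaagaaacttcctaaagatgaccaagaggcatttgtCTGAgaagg

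Snord15b overlapped an annotated exon of Rps3 on the same strand and Snord15a did not. The part of host reads in either row was not tested. With the same host gene and nearly the same length, Snord15b was at 145 ± 54.8 RPKM and Snord15a at 15.1 ± 6.51 RPKM (SD, n = 12). Snord15b was 264, 175, 175 and 179 RPKM in the retro-orbital tumors, 146, 101 and 152 RPKM in cheek and 169, 86.0 and 138 RPKM in meninges. Snord15a was 28.2, 12.9, 20.5 and 12.1 RPKM in retro-orbital, 16.7, 12.2 and 20.5 RPKM in cheek and 21.1, 11.8 and 11.0 RPKM in meninges. The vestibular nerve tumor had the lowest value of both (59.7 and 4.04 RPKM). Snord15b was higher in 12 of 12 tumors, by 7.28 to 14.8 times (median 9.05). The 2 RNAs moved together over the tumors (r = 0.85 on the log2 scale), whereas r with the level of Rps3 was -0.29 for Snord15b and -0.10 for Snord15a.

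Of the other C/D RNAs with the highest means, Snord104 has no host in the annotation. It ranged from 34.3 RPKM (trigeminal nerve) to 149 RPKM (vestibular nerve), so that the 2 nerve tumors were its extremes. Snord98 ranged from 17.6 to 115 RPKM, on 8 to 184 fragments over 28 bases. Snord111, in the splicing factor gene Sf3b3, was at 44.3 ± 11.7 RPKM. Snord19 in the nucleolar gene Gnl3 was at 37.8 ± 14.1 RPKM, Snord96a in Rack1 at 35.5 ± 12.6 RPKM and Snord2 in the translation initiation gene Eif4a2 at 33.7 ± 8.63 RPKM (SD, n = 12 for each). Snord2 was the most even of these 8 by its SD on the log2 scale (0.35).

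Among the H/ACA RNAs, Snora74a (U19) was the highest, at 107 to 368 RPKM with a median of 160 RPKM. It was 368, 248, 172 and 119 RPKM in the retro-orbital tumors, 236, 167 and 226 RPKM in cheek and 152, 107 and 138 RPKM in meninges. The 3 cheek tumors lay above the 3 meninges tumors, and the retro-orbital tumors covered both ranges. Snora81, in the same host as Snord2, was at 117 ± 28.2 RPKM and was the most even of the 8 highest H/ACA rows (SD of 0.32 on the log2 scale). Snora23, shown above, was at 92.8 ± 36.3 RPKM, with 187 RPKM in retro-orbital tumor 1 and 48.6 RPKM in the vestibular nerve tumor.

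Snora65 lies in the ribosomal protein gene Rpl12. It was at 52.8 ± 17.6 RPKM and Snora68 at 37.7 ± 15.3 RPKM (SD, n = 12 for each), and both were lowest in retro-orbital tumor 3 and highest in retro-orbital tumor 1. Snora17 was at 44.4 ± 15.2 RPKM. It was higher than Snora43, its neighbor on the same strand, in 12 of 12 tumors, by 1.26 to 2.32 times. Snora61 and Snora44, both in Snhg12, were at 29.1 ± 6.81 and 26.3 ± 11.3 RPKM.

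The scaRNAs had means from 1.34 to 348 RPKM. Scarna2, which guides methylation of the U2 RNA of the spliceosome, had the highest mean of all 119 rows (348 ± 171 RPKM, SD, n = 12). It was 848, 222, 374 and 367 RPKM in the retro-orbital tumors, 296, 214 and 324 RPKM in cheek, 350, 367 and 344 RPKM in meninges, 287 RPKM in the vestibular nerve and 179 RPKM in the trigeminal nerve tumor. Retro-orbital tumor 1 lay far above the other 11 tumors, which did not exceed 374 RPKM. The values rest on the 61 bases shown in capitals, with 231 to 1401 fragments per tumor. Scarna13, a scaRNA of the H/ACA kind, was at 66.1 to 224 RPKM (median 150 RPKM) over its full length. Scarna10, which held the letters of boxes C and D, was the most even of the 9 (133 ± 28.1 RPKM, SD of 0.29 on the log2 scale).

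Scarna17 was at 60.9 ± 23.4 RPKM, Scarna6 at 34.1 ± 13.8 RPKM and Scarna9 at 26.6 ± 14.2 RPKM (SD, n = 12 for each). Scarna6, in the autophagy gene Atg16l1, was 43.2, 49.9 and 63.8 RPKM in the cheek tumors. It was 36.0, 33.1, 27.2 and 25.8 RPKM in the retro-orbital tumors and 18.3 to 42.9 RPKM in the meninges tumors, and the cheek tumors lay above all of these (limma F test, adjusted p = 0.310). Scarna3a was at 7.65 ± 3.06 RPKM, and its relative Scarna3b, with 120 identical positions in an alignment of 140, was at 1.34 ± 0.856 RPKM. Scarna8 was at 0 to 4.80 RPKM.

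**Figure D4:**
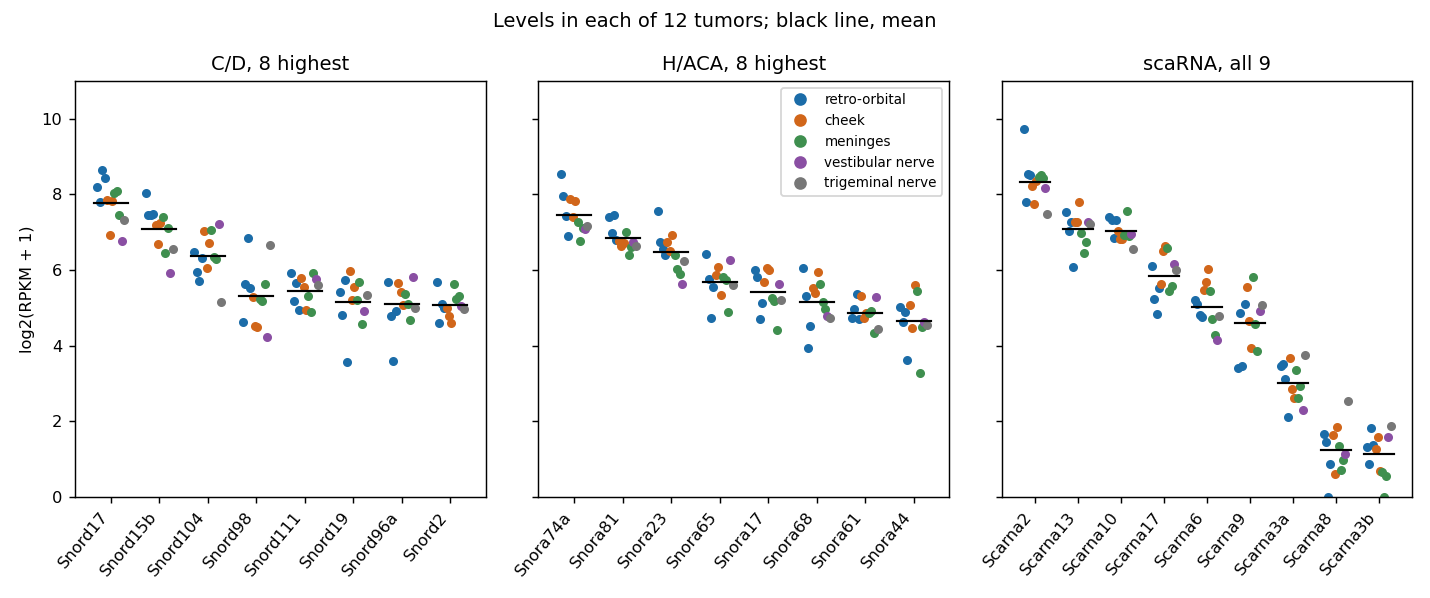
Levels as log2(RPKM + 1) of the 8 C/D and 8 H/ACA rows of highest mean and of all 9 scaRNA rows in each of the 12 tumors, colored by location; black lines are means over the 12 tumors. Scarna2 in retro-orbital tumor 1 (848 RPKM) is the highest value, and the scaRNAs reach down to Scarna8 and Scarna3b with means of 1.59 and 1.34 RPKM.

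In each tumor 79 to 100 of the 119 rows reached 1 RPKM (mean 91.0), and 65 rows did so in all 12 tumors. These were 32 of 74 C/D, 26 of 36 H/ACA and 7 of 9 scaRNA rows. Without retro-orbital tumor 3 the number was 67. A single fragment on 70 bases was worth 0.250 RPKM in the deepest tumor and 1.08 RPKM in the shallowest, so that 1 RPKM is near the floor for C/D rows. The median C/D row held 11.5 fragments, the median H/ACA row 30.5 and the median scaRNA row 92.0.

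Rows listed at 0 in all 12 tumors were Snora19, Snora24, Snora26, Snord116, Snord116l1, Snord116l2, Snord14a, Snord14c, Snord1a, Snord45c and Snord7 (11 rows). Without retro-orbital tumor 3 there were 12, since Snord14d was at 16.7 RPKM there and at 0 elsewhere. Of these 11 rows, 7 overlapped an exon of another gene on the same strand in GENCODE, as did 52 of the 108 other rows. Snord116l1 and Snord116l2 are identical over 94 bases, and Snord14c and Snord14d share 84 of 86 aligned positions. The authors kept uniquely mapped reads, so levels of such copies are uncertain, and a value of 0 does not show that the RNA is absent.

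Of the snoRNAs that serve the cutting of ribosomal RNA, Snord118, Snord22 and the Snord14 genes were measured. Snord3a, Snord3b, Snord13, Snora73a and Snora73b had no row among the 119 members. Snord22 (U22), in the noncoding host Snhg1, was at 28.1 ± 6.55 RPKM (SD, n = 12) with an SD of 0.33 on the log2 scale. Snord118, which is transcribed from its own promoter, was among the most variable. It was 1.68, 0.773, 0 and 32.0 RPKM in the retro-orbital tumors, 8.82, 1.39 and 1.72 RPKM in cheek, 5.78, 5.18 and 17.9 RPKM in meninges, 13.6 RPKM in the vestibular nerve and 7.51 RPKM in the trigeminal nerve tumor. The highest value and the 0 were both in the retro-orbital group. In the imprinted Prader-Willi region of chromosome 7, Snord64 was at 3.70 to 18.7 RPKM, whereas the Snord116 rows were listed at 0.

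Across the 105 rows with at least 1 RPKM in at least 3 tumors, the median coefficient of variation was 52.2%, against 23.2% for counting error alone. The variance over tumors was a median of 4.83 times the counting variance, and it was less than 2 times that variance in 7 rows. Fragments are not independent molecules, so this ratio covers counting error only. The 8 rows of largest SD on the log2 scale were all C/D: Snord70, Snord85, Snord118, Snord42a, Snord71, Snord65, Snord99 and Snord88c. Each of them was at 0 in at least 1 tumor. Snord70, in Nop58, ranged from 0 in retro-orbital tumors 2 and 3 to 35.2 RPKM in the vestibular nerve tumor. Snord85 was at 0 in retro-orbital tumors 1, 3 and 4 and in cheek 2, and at 16.4 RPKM in meninges 3.

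Whether the location of a tumor went with the level of any member was tested with limma on log2(RPKM + 1) in the 10 tumors of the 3 locations with at least 3 tumors. Genes at 1 RPKM or more in at least 3 of these tumors were tested, which were 102 of the 119 rows and 14745 genes in all. In the F test over the 3 locations, 0 members passed an adjusted p of 0.05, against 6 of all genes (0.0407%). At an unadjusted p under 0.05 there were 11 members (10.8%), against 14.3% of all genes. With each tumor left out in turn, 0 members passed in every fit, whereas the count of all genes went from 0 (without cheek 2, cheek 3 or meninges 1) to 56 (without retro-orbital 3) and 198 (without cheek 1).

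In the pairwise contrasts, which share tumors with each other, 0 members passed an adjusted p of 0.05 in any. For cheek minus retro-orbital, 11 members were higher and 3 lower at an unadjusted p under 0.05. Of all genes, 0.0271% were higher and 0% lower by the adjusted and 5.52% and 6.45% by the unadjusted p. For meninges minus retro-orbital, 6 members were higher and 6 lower, beside 0.0136% and 0.00678% of all genes by the adjusted and 6.61% and 2.54% by the unadjusted p. For meninges minus cheek, 1 member was higher and 3 were lower, beside 0.0203% and 0.0271% by the adjusted and 11.6% and 5.37% by the unadjusted p.

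The median log2 difference of the 102 members between cheek and retro-orbital tumors was 0.33 (all genes, -0.015). A higher mean in cheek was found for 71 members (69.6%), against 48.6% of all genes. By class this median was 0.40 for C/D, 0.21 for H/ACA and 0.36 for scaRNA rows. Between meninges and retro-orbital tumors the median was -0.063 (all genes, 0.13), and without meninges 3, meninges 2, retro-orbital 1 or retro-orbital 2 it was above 0. Between meninges and cheek tumors the median was -0.25 (all genes, 0.16), and 74 members had a lower mean in meninges. The mean was higher in meninges for 27.5% of the members, against 61.9% of all genes. These medians describe the rows that passed the filter and were not tested, and the summed neuron and glia genes given above did not overlap between cheek and meninges tumors, whose part was not tested.

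The smallest p among the members was that of Snord88c, a C/D RNA with a near copy, Snord88a, in the same host region. The 2 sequences are identical at 85 of 90 aligned positions, and boxes C and D are in capitals. Snord88c lies at chr7:44249852-44249941 and Snord88a at chr7:44250135-44250224, both on the plus strand, and their rows covered 84 and 72 of the 90 bases.
Snord88c: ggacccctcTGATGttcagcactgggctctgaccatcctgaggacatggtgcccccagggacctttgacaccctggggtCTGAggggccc
Snord88a: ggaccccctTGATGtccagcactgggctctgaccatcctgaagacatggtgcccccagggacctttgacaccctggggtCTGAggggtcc

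Snord88c was 0, 1.21, 0 and 0 RPKM in the retro-orbital tumors, 6.72, 6.93 and 5.41 RPKM in cheek and 5.19, 1.81 and 2.68 RPKM in meninges. The vestibular nerve tumor was at 3.77 RPKM and the trigeminal nerve tumor at 0. The retro-orbital tumors lay below all cheek and meninges tumors, on at most 19 fragments in any tumor. The difference between cheek and retro-orbital was 2.59 ± 0.38 (log2, SE), which did not pass (limma, adjusted p = 0.126), and the F test gave an adjusted p of 0.104. Without cheek 1 the contrast passed (limma, adjusted p = 0.0423), with a cheek group of cheek 2 and cheek 3 alone, whose identifiers start with the same number. Snord88a did not share this pattern: it was 3.59, 0.945, 0 and 9.10 RPKM in retro-orbital and 2.45, 2.55 and 7.36 RPKM in cheek tumors, which overlapped. As the 2 RNAs are near copies, their split between rows is uncertain.

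Snord52, in the noncoding gene 1110038B12Rik, was 1.25, 0, 0 and 0 RPKM in retro-orbital, 5.38, 5.20 and 6.42 RPKM in cheek and 7.39, 1.29 and 0.952 RPKM in meninges tumors. The cheek tumors lay above the retro-orbital tumors and the meninges tumors spread over both (cheek minus retro-orbital 2.44 ± 0.52, log2, SE; limma F test, adjusted p = 0.185). Snord4a, in the ribosomal protein gene Rpl23a, was 15.3, 11.2, 9.25 and 16.3 RPKM in retro-orbital and 23.2, 27.1 and 29.2 RPKM in cheek tumors. It had the best supported counts of these rows, 23 to 70 fragments, and means of 4.78 in cheek and 3.78 in retro-orbital tumors on the log2(RPKM + 1) scale (SE of the difference 0.25; limma F test, adjusted p = 0.241). Snord92, in Wdr43, a gene for ribosomal RNA processing, went the other way, with 6.23, 4.92, 5.91 and 9.64 RPKM in retro-orbital and 3.07, 0.916 and 2.03 RPKM in meninges tumors (-1.38 ± 0.36, log2, SE; limma F test, adjusted p = 0.244). None of these passed the threshold, and values of Snord88c and Snord52 at 0 make their differences depend on the pseudocount.

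**Figure D5:**
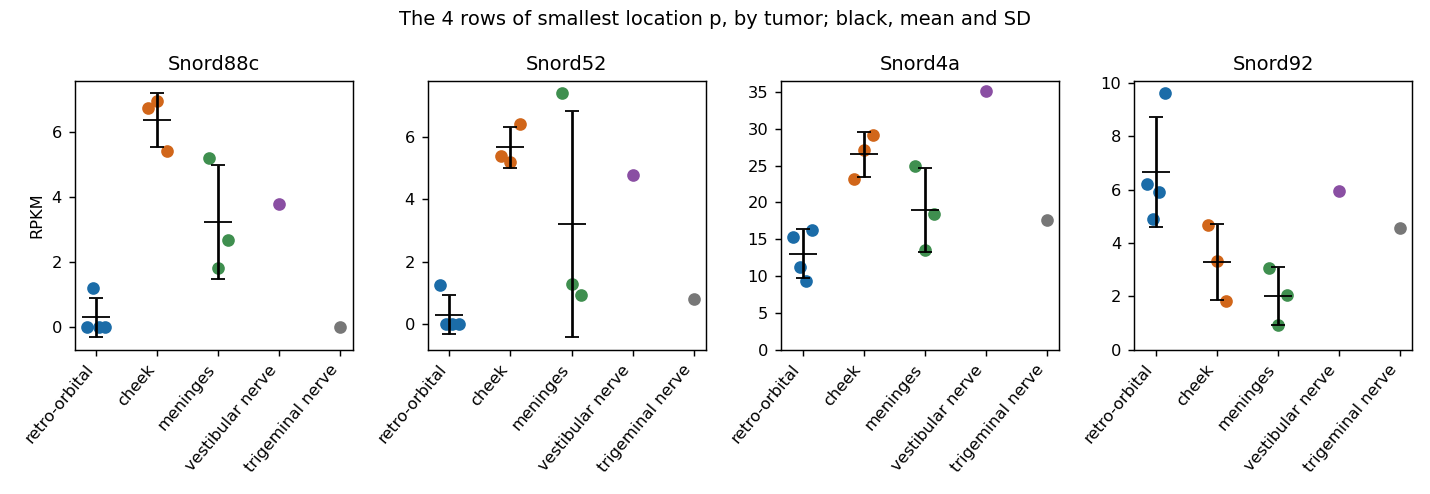
RPKM of Snord88c, Snord52, Snord4a and Snord92, the 4 members of smallest p in the F test, in each tumor by location; black marks are mean and SD of the locations with at least 3 tumors. Snord88c and Snord52 are at 0 in 3 of the 4 retro-orbital tumors, and no member passed the adjusted threshold.

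Most members lie in 1 host gene, and levels of members and hosts were compared over the 12 tumors. Of 118 members in the annotation, 103 lay within a single gene on the same strand, 6 in none and 9 in several. In 83 pairs of a member and a host in the files, with the member at 1 RPKM or more in at least 3 tumors, the median r on the log2 scale was 0.40, and 69 pairs were above 0. Members paired with the hosts of other members gave a median of 0.19 over 5229 pairs, which share libraries and denominators. Without retro-orbital tumor 3 these medians were 0.36 and 0.22. The median was 0.56 for the 28 H/ACA pairs and 0.25 for the 50 C/D pairs. Of all H/ACA rows, 23 of 36 overlapped an exon of another gene on the same strand, as did 32 of 74 C/D rows. The part of reads from such exons in these correlations was not tested.

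The level of a member per kilobase was above that of its host in 10 of 83 pairs and at a median of 0.0937 of it. Scarna13 was 49.6 times the level of Snhg10, Snora78 was 19.3 times that of Snhg9, and Snord17 was 2.91 times that of Snx5. Scarna10 was 7.68 times the level of Ncapd2 at the 71 bases behind its row and 1.68 times with the same fragments spread over its GENCODE length. Snord70 followed the core C/D protein gene Nop58, its host, with an r of 0.82, and Snord99 followed Snhg12 with an r of 0.77. The other RNAs of Snhg12 did not do so alike, with an r of 0.63 for Snora16a, 0.068 for Snora44 and -0.045 for Snora61. In Eif4a2, Snord2 followed the host (r = 0.70) and Snora81 did not (r = 0.045), and Snora81 was higher than Snord2 in 12 of 12 tumors by 2.31 to 5.44 times. In Rack1, whose 2 snoRNAs moved together (r = 0.86), Snord96a was higher than Snord95 in 12 of 12 tumors, by 1.83 to 3.74 times.

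Members of 1 host differed widely in mean level in several genes. The range was 12.2-fold in Ncl (Snora75 over Snord82), 9.61-fold in Rps3, 4.99-fold in Wdr43 and 4.62-fold in Gnl3. It was 1.11-fold in Nop56 (Snord57 and Snord110), 1.22-fold in Rps12 and 1.96-fold in Nop58.

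The genes of proteins that bind these RNAs were expressed as RNA in every tumor, and no protein was measured in these data. Fbl (fibrillarin, the methylase of C/D particles) was at 30.8 ± 11.1 RPKM, Nop58 at 83.0 ± 24.0 RPKM and Nop56 at 48.7 ± 15.9 RPKM (SD, n = 12 for each). Dkc1 (dyskerin, the pseudouridine synthase of H/ACA particles) was at 22.7 ± 8.91 RPKM. Fbl and Dkc1 were highest in the vestibular nerve tumor (54.8 and 44.9 RPKM), and Nop56, Nop58 and Dkc1 were lowest in retro-orbital tumor 3. Gas5 and Snhg1, noncoding hosts of several snoRNAs, were at 57.7 to 174 RPKM and 51.6 to 146 RPKM, both with the lowest value in retro-orbital tumor 3. In the F test over locations, 0 of 4 core C/D proteins, 0 of 4 core H/ACA proteins, 0 of 10 assembly factors, 0 of 3 Cajal body genes and 0 of 10 noncoding hosts passed (limma; at an unadjusted p under 0.05, 2 noncoding hosts and none of the others, beside 14.3% of all genes).

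Member profiles of the tumors were compared over 105 rows after each row was centered on its mean over the 12 tumors. The centering itself pulls the correlations below 0, and their mean over 66 pairs was -0.083. The highest correlation between tumors was that of cheek 2 and cheek 3 (r = 0.29), whose sample identifiers start with the same number. Of the other pairs with such a shared start, cheek 1 and meninges 1 had the fifth highest of 66 values (r = 0.15), and retro-orbital 3 and trigeminal nerve 1 ranked 42 (r = -0.11). Whether a shared number means a shared animal is not given in the sources used here.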

How the data were processed

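RNA of 12 tumors was sequenced by the study from stranded libraries after ribosomal RNA removal. The authors aligned reads with STAR to mm10, counted fragments of uniquely mapped reads on RefSeq genes with HTSeq, and deposited RPKM values (edgeR, limma and bcl2fastq 2.17 also stand in the processing notes). The strand setting, the gene lengths and the total of each tumor behind the RPKM are not given in the sources used here. The paper gives a range of reads per sample. The total of each tumor was solved for as the number that turns member values at RefSeq lengths (GRCm38.p6) into whole fragments, within 0.05 of whole numbers for 93.8% to 96.1% of the member rows above 0. The recovered totals were 13206181 to 57128364 fragments per tumor, a wider spread in proportion than the paper's range of reads. Counting precision follows from each row's fragments. Positions, hosts and sequences are from GENCODE M21 on GRCm38 (118 members matched).

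Locations were compared with limma 3.58.1 (R 4.3.3) on log2(RPKM + 1) with a trended, robust prior, genes of at least 1 RPKM in at least 3 of 10 tumors, and Benjamini-Hochberg adjustment at 0.05. The fit and the depth recovery were tested on simulated data. Labels do not state that each tumor came from its own animal, so p-values measure the spread between tumors. Named genes were the 8 C/D and 8 H/ACA rows of highest mean, all scaRNAs, the 8 rows of largest SD, rRNA processing and imprinted snoRNAs, and fixed pathway genes. Snord52, Snord4a, Snord92, the host pairs and other members were named after their values were seen. The members and lists were chosen with earlier results of these data known. The deposited symbols include 27 that are dates, which were fitted but not named. The pseudocount, filter, normalization, prior, covariate, tumors, denominators, lengths and thresholds were varied.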

Additional observations from a re-analysis of the deposited data

Results flagged for a closer look

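Of 46 measures checked in the 4 retro-orbital tumors, 8 had 1 tumor far from the other 3. Chance marks about 1 in 20 groups, but several of these members were named for their large spread and 3 of the 8 cases come from ties at 0, so the number of cases was not compared with chance. The gap to the nearest tumor was set against the group's range (Dixon's test at the 95% level). The summed RPKM of scaRNA rows was 1326 in retro-orbital tumor 1, against 622 to 717 in the others. Snord15b was at 264 RPKM in the same tumor, against 175 to 179 RPKM. Scarna10 was at 114 RPKM in retro-orbital tumor 3, against 158 to 167 RPKM. Snord118 was at 32.0 RPKM in retro-orbital tumor 4, against 0 to 1.68 RPKM. Snord64 was at 3.70 RPKM in retro-orbital tumor 2, against 10.0 to 11.2 RPKM. The remaining cases were rows at 0 in the other 3 tumors: Snord52 at 1.25 RPKM in retro-orbital tumor 1, and Snord85 at 8.90 RPKM and Snord88c at 1.21 RPKM in retro-orbital tumor 2. The cause was not tested.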

How the results depend on the processing

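No member passed the F test under any alternative run (limma). At an unadjusted p under 0.05 there were 4 of 65 members (1581 of 10781 genes) with at least 1 RPKM in every tumor to 18 of 100 members (2417 of 14624 genes) without retro-orbital 1. The number of all genes that passed was 6, and it was 10 with no filter on low values, 2 with at least 1 RPKM in every fitted tumor, 19 with a constant prior, 0 with the first digits of the tumor identifier as a covariate and 0 with cheek 2 and cheek 3 averaged, an alternative chosen after seeing the data. With 1 tumor left out it ranged from 0 to 198. For cheek minus retro-orbital 0 to 1 members passed with 1 tumor left out, and Snord88c was that member. Snord88c had adjusted p-values of 0.0511 to 0.444 in the F test over its 16 alternatives. The difference of Snord100 between cheek and retro-orbital tumors was 0.16, ranged from -0.014 to 0.42 with 1 tumor left out, and was below 0 without retro-orbital 4 (-0.0086) or cheek 3 (-0.014). The median difference of the members between meninges and retro-orbital tumors was between -0.13 and 0.15 with 1 tumor left out, being 0.13, 0.012, 0.014 and 0.15 in the fits where it was above 0.

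The mean share of 0.645% was 0.768% without the 10 highest other rows, 0.496% per GENCODE length and 0.0330% as recovered fragments of the recovered totals (both chosen after seeing the data). It was 0.0211% with RPKM times annotated length, where GENCODE exon lengths stood for the lengths of the other genes. The mean ratio of H/ACA to C/D sums of 0.740 was 0.984 for genes of 120 to 150 bases and 1.04 for these without Snord118 (chosen after seeing the data), and H/ACA rows were the higher class by 0.75 in mean log2(RPKM + 1). The mean number of rows reached was 97.5 at 0.1 RPKM and 67.5 at 5 RPKM, against 91.0 at 1 RPKM. With 1 tumor left out, the mean share was 0.642% to 0.736% in retro-orbital, 0.632% to 0.696% in cheek and 0.564% to 0.633% in meninges tumors. No paired analysis was possible because the labels give no replicate numbers and only 1 pair of tumors with a shared identifier start (cheek 1 and meninges 1) spans 2 of the locations compared. The cause of these changes was not tested. The rows of few fragments limit what can be seen, since a median C/D row held 11.5 fragments.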
